A study of Mus musculus with 8 samples.

Results

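The 9 genes described here are the ErbB receptors Egfr, Erbb2, Erbb3 and Erbb4 and the EGF-family ligands Nrg1, Nrg2, Nrg4, Hbegf and Btc, picked by name from 55487 Ensembl genes. All 9 were found by symbol in the GRCm38 annotation, and all 9 were among the 14695 genes that passed the filter on low counts. Transcripts were counted in the left ventricles of C57BL/6 mice at 12 weeks of age. Ventricles of 4 KO animals (titled CM-ADGRF5-KO, genotype given as a myocyte-specific GPR116-/-, another name of ADGRF5) were compared with those of 4 control animals titled NLC, labelled wild-type. Each group held 2 males (replicates 1 and 2) and 2 females (replicates 3 and 4). The sources used here name neither the Cre line nor the floxed allele behind the deletion, and do not say whether the NLC animals carried either.

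ErbB receptors are tyrosine kinases of the cell membrane that work in pairs. Ligands with an EGF-like domain bind them from outside, the receptors pair, and the kinases phosphorylate tails that recruit adaptors of the Ras-ERK and PI3K-Akt pathways. In the heart, neuregulin-1 is released mainly by endothelial and endocardial cells and acts on ErbB4 in cardiomyocytes, which pairs with ErbB2, a receptor with no ligand of its own. Mouse embryos without Nrg1, Erbb2 or Erbb4 fail to form ventricular trabeculae, and block of ErbB2 is known to weaken the adult heart.

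The receptors are relatives, so reads of a shared stretch could be hard to assign. The catalytic loop, a conserved stretch of the kinase domain, is shown for all 4 so that their likeness can be seen. It falls in exon 21 of the transcript with the longest coding part that holds it in each gene (GENCODE M21, GRCm38), at chr11:16904326-16904373 on the + strand for Egfr, chr11:98434235-98434282 on the + strand for Erbb2, chr10:128572521-128572568 on the - strand for Erbb3 and chr1:68080727-68080774 on the - strand for Erbb4. The sequences run 5′ to 3′ along the transcript, with the codon of the loop's aspartate in capitals.
Egfr: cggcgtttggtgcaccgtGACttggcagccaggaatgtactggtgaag
Erbb2: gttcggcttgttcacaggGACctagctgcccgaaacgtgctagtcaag
Erbb3: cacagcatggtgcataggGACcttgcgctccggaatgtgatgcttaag
Erbb4: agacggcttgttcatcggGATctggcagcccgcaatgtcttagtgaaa
Between pairs of receptors, 27 to 34 of the 48 bases were identical, the most between Erbb2 and Erbb4 and the fewest between Erbb3 and Erbb4. The codon in capitals was GAC in Egfr, Erbb2 and Erbb3 and GAT in Erbb4.

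The ligands share the EGF-like domain through which they bind the receptors. Its coding sequence is shown from the first to the last of its 6 cysteine codons, in capitals, for Nrg1 (chr8:31837698-31849398, - strand, exons 2 to 3 of the transcript used), Nrg4 (chr9:55242177-55280969, - strand, exons 4 to 5) and Btc (chr5:91362421-91366197, - strand, exons 3 to 4). In each gene an intron divides the domain, so the genomic interval is longer than the 120, 111 and 108 coding bases printed.
Nrg1: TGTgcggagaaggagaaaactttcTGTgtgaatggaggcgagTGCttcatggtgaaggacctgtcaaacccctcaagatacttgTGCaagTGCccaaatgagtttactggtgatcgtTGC
Nrg4: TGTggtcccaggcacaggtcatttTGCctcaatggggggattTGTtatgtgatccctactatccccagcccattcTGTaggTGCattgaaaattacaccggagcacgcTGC
Btc: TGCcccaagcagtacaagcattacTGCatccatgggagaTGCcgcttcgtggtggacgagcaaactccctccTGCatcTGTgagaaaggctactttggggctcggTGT

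Libraries held 26587475 to 39615408 gene reads in KO and 25328784 to 28347135 in NLC, and no 2 libraries of a group agreed within sampling noise. The 8 cardiomyocyte markers summed to 68452 to 81532 CPM (read counts scaled to the size of the library) in KO. In NLC they summed to 64890 to 76875 CPM. These sums mark heart muscle and do not check the chamber it came from. The targeted gene, Adgrf5, stood at 203 to 240 CPM in KO and 218 to 257 CPM in NLC (log2 fold change -0.05, SE 0.0754, edgeR adjusted p = 0.782). Other cells of the ventricle also transcribe it, so this level does not check the labels, and every direction below rests on them. Transcripts of the atria were unevenly present. Summed levels of the 6 atrial markers were 369 to 1492 CPM in KO and 389 to 6151 CPM in NLC, highest in NLC replicate 4. Most of these sums was Nppa, at 336 to 1034 CPM in KO and 283 to 3778 CPM in NLC. Myl7, another of the 6, ranged from 0.26 to 183 CPM in KO and from 0.37 to 983 CPM in NLC.

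None of the 9 genes passed the test between KO and NLC, and Erbb4 was the member with the largest difference. By edgeR's quasi-likelihood test, adjusted over all genes tested at a threshold of 0.05, 0 of 9 members were called, where 0.102% of all genes tested were (0.0476% higher and 0.0544% lower in KO). At an unadjusted p under 0.05 there was 1 member, Erbb4, against 11.9% of all genes (5.77% higher and 6.18% lower in KO). Limma voom called 0 members. DESeq2 called Erbb4 (adjusted p = 0.0190) and no other member, where it called 1.01% of all genes. Ventricles were measured whole, so fewer cells of a type and less RNA per cell cannot be told apart in any value given here.

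**Figure D1:**
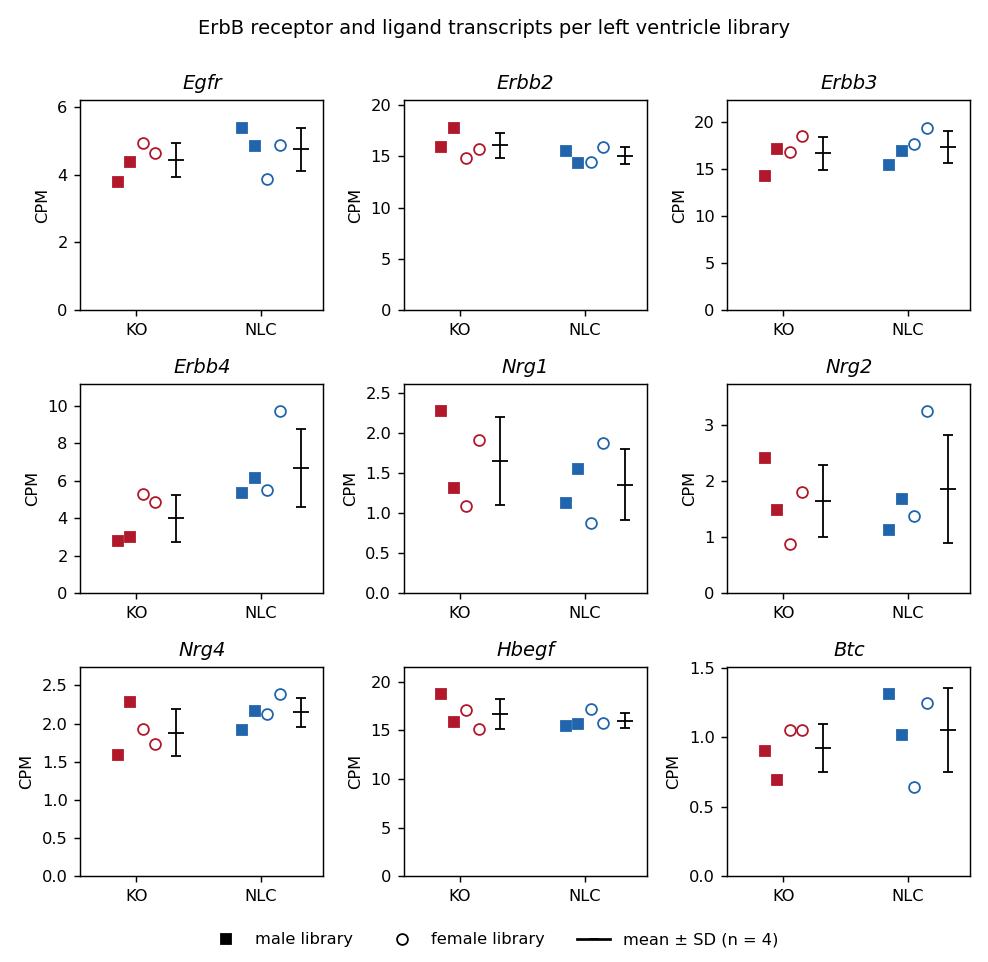
Level of each receptor and ligand transcript in CPM (y axes, each from 0) in the 4 KO and the 4 NLC libraries, with squares for males, open circles for females and bars for the mean ± SD. The Erbb4 points of KO lie below those of NLC, with a narrow gap between 5.27 and 5.32 CPM, and the groups overlap for the other 8 genes.

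Erbb4 encodes the receptor through which neuregulin-1 acts on cardiomyocytes. It was measured at 2.80, 3.01, 5.27 and 4.85 CPM in KO replicates 1 to 4, against 5.32, 6.16, 5.50 and 9.72 CPM in NLC replicates 1 to 4. The groups did not overlap, although the highest KO library, at 5.27 CPM, came close to the lowest NLC library, at 5.32 CPM. Among the KO libraries the 2 males were the lowest, and among the NLC libraries replicate 4 stood highest. A lack of overlap in either direction was found for 1 of the 9 members and for 6.25% of all genes tested, and lack of overlap with KO lower for 3.03% of them.

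The mean Erbb4 level was 3.98 ± 1.26 CPM in KO and 6.67 ± 2.06 CPM in NLC (SD, n = 4 each), a ratio of 0.597. The log2 fold change was -0.78 (SE 0.185), with a 95% interval of -1.19 to -0.37, an unadjusted p of 0.00172 and an edgeR adjusted p of 0.206. Erbb4 ranked 122 of the 14695 genes by p. The two-sided exact permutation p, from the 70 ways to assign the libraries, was 0.0286, the smallest that these assignments can give. They ignore sex, and the value follows from the lack of overlap already given, so it is not a further check. Each value rests on 87 to 281 reads. Counting alone would give a coefficient of variation of 9.40% in KO and 7.64% in NLC, where the libraries varied by 31.6% and 30.9%.

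The negative sign of Erbb4 held in all 18 alternative settings, in which the log2 fold change lay between -0.96 and -0.60 and the adjusted p between 0.000101 and 0.545. Leaving out a library could not turn the sign, since the groups did not overlap. The call did not hold throughout. Erbb4 passed without NLC replicate 3 (-0.96, adjusted p = 0.0152), with DESeq2 (-0.78, adjusted p = 0.0190) and with no low count filter (-0.77, adjusted p = 0.000101). These settings called 50, 148 and 621 genes in all, where the main fit called 15.

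In each group the library with the most Erbb4 also had the most atrial transcript. In KO replicate 3 the atrial light chain gene Myl7 reached 183 CPM and Sln, which encodes an atrial regulator of the calcium pump, 32.8 CPM, and in NLC replicate 4 they reached 983 and 222 CPM. Where Myl7 was lowest, at 0.264 CPM in KO replicate 1 and 0.371 CPM in NLC replicate 3, Erbb4 was at 2.80 CPM in that KO library and 5.50 CPM in that NLC library. That KO library is male and that NLC library female, so genotype and sex cannot be told apart between them. None of the 6 atrial markers was at 0 over all libraries, and the 5 that were tested all had a negative log2 fold change (median -3.03). Without NLC replicate 4 the Erbb4 log2 fold change was -0.63 (edgeR adjusted p = 0.296). With the atrial score added to the model, an alternative chosen after the data were seen, it was -0.60 (edgeR adjusted p = 0.0964). The 6 epicardial and mesothelial markers, none at 0 over all libraries, summed to 3.38 to 8.46 CPM in KO and 5.62 to 33.6 CPM in NLC, and their part in the Erbb4 difference was not tested.

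**Figure D2:**
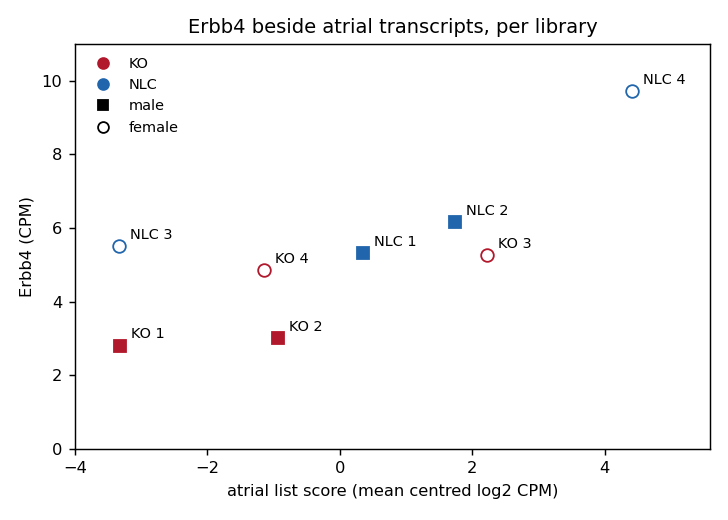
Erbb4 level in CPM (y axis) against the atrial list score (x axis, mean log2 CPM of the 5 tested atrial markers, each centred on its mean over the 8 libraries) in KO and NLC libraries. NLC replicate 4 has the highest value of both (score 4.41). KO replicate 1, a male, and NLC replicate 3, a female, have like scores of -3.32 and -3.33 and Erbb4 at 2.80 and 5.50 CPM.

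The other 3 receptors overlapped between the groups. Erbb2 (ENSMUSG00000062312, chr11:98412470-98437716), the partner receptor of ErbB4, was measured at 15.9, 17.8, 14.9 and 15.7 CPM in KO replicates 1 to 4 and at 15.6, 14.4, 14.4 and 15.9 CPM in NLC replicates 1 to 4. KO replicate 2 was the highest of all libraries and the rest intermingled. The means were 16.1 ± 1.24 CPM in KO and 15.1 ± 0.793 CPM in NLC, and the 95% interval of the fold change was 0.938 to 1.21 (edgeR adjusted p = 0.646). Some Erbb2 exon sequence overlaps Mien1 on the opposite strand, and the strand setting of the counting is not known. Mien1 stood at 28.9 ± 1.64 CPM in KO and 27.3 ± 2.85 CPM in NLC (log2 fold change 0.08, SE 0.0902).

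Erbb3 (ENSMUSG00000018166, chr10:128567523-128589652), a receptor with little kinase activity that signals through its partners, was at 14.3, 17.1, 16.8 and 18.5 CPM in KO replicates 1 to 4. In NLC replicates 1 to 4 it was at 15.4, 16.9, 17.7 and 19.4 CPM. In both groups replicate 1 was the lowest and replicate 4 the highest, and the groups spanned almost the same range. The 95% interval of the fold change was 0.841 to 1.10 (log2 fold change -0.06, SE 0.0861, edgeR adjusted p = 0.782). Schwann cells depend on ErbB3. The 9 markers of that cell type summed to 18.4 to 20.5 CPM in KO and 13.1 to 30.9 CPM in NLC with none at 0 over all libraries, and 4 of the 8 tested were on each side of zero change.

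Egfr (ENSMUSG00000020122, chr11:16752203-16918158), the receptor of EGF, HB-EGF and betacellulin, was at 3.78, 4.39, 4.95 and 4.66 CPM in KO replicates 1 to 4 and at 5.40, 4.85, 3.88 and 4.88 CPM in NLC replicates 1 to 4. In males both KO libraries lay below both NLC libraries, while in females they overlapped. Over both sexes the log2 fold change stood at -0.10 (SE 0.148, edgeR adjusted p = 0.790), and the 95% interval of the fold change was 0.744 to 1.17. Markers of fibroblasts, which are known to express Egfr, summed to 2122 to 2967 CPM in KO and 2164 to 2915 CPM in NLC over 8 of 8 genes with none at 0.

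Receptor levels can be set against each other within a library per length of exon, which removes the library scaling. Of the summed receptor level per kilobase, Erbb4 made up 3.79%, 3.53%, 6.55% and 5.69% in KO replicates 1 to 4 and 6.68%, 7.66%, 6.85% and 10.5% in NLC replicates 1 to 4. Erbb2 made up 47.0% ± 3.74 in KO and 43.0% ± 2.32 in NLC, and Erbb3 42.1% ± 2.09 in KO and 42.8% ± 2.33 in NLC (SD, n = 4 each). The Erbb4 shares did not overlap and the Erbb2 and Erbb3 shares did. These shares repeat the Erbb4 difference on another scale and were not tested. The ratio of Erbb4 to Erbb2 per length was 0.0712 to 0.149 in KO and 0.144 to 0.257 in NLC, so on this scale 1 KO library reached into the NLC range.

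**Figure D3:**
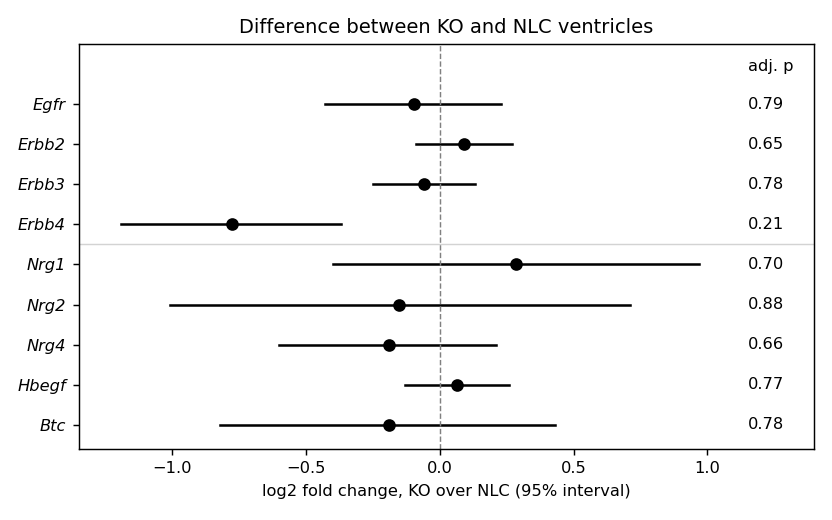
Log2 fold change of KO over NLC (x axis) with its 95% interval for the 4 receptors (above the line) and the 5 ligands, and the edgeR adjusted p at the right. The interval of Erbb4, -1.19 to -0.37, is the only one that leaves out 0, and its adjusted p of 0.206 does not pass the threshold.

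No ligand had an unadjusted p under 0.05 between KO and NLC, and DESeq2 and limma voom each called 0 of the 5. Nrg1 encodes neuregulin-1, the ligand of ErbB3 and ErbB4. It was at 2.27, 1.31, 1.09 and 1.92 CPM in KO replicates 1 to 4, against 1.12, 1.55, 0.877 and 1.87 CPM in NLC replicates 1 to 4. Both groups spread widely and overlapped over most of their range. KO over NLC, the log2 fold change stood at 0.29 (SE 0.310, edgeR adjusted p = 0.703), with a 95% interval of -0.40 to 0.97. It was 0.07 without KO replicate 1 and 0.56 without NLC replicate 4, the ends of its range when a library was left out. Some Nrg1 exon sequence overlaps a noncoding RNA gene on the opposite strand that was not analysed here.

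Endothelial and endocardial cells are the known source of neuregulin-1 in the heart. The 8 endothelial markers summed to 1190 to 1375 CPM in KO and 1266 to 1568 CPM in NLC, with a negative log2 fold change for 7 of 8. The 5 endocardial markers summed to 96.7 to 134.9 CPM in KO and 136.4 to 178.4 CPM in NLC, with a negative log2 fold change for 5 of 5, and these sums did not overlap. Vwf, the largest part of them, was at 53.2 to 73.7 CPM in KO and 76.5 to 87.4 CPM in NLC. Nfatc1 did not overlap either, while Npr3, Plvap and Cytl1 did. Lack of overlap was not particular to the endocardial list. Of the endothelial markers, Pecam1 (152.1 to 161.9 CPM in KO, 168.5 to 198 CPM in NLC) did not overlap. Neither did Emcn (37.8 to 39.9 CPM in KO, 44.9 to 54.3 CPM in NLC), while the other endothelial markers did. Lack of overlap was found for 6.25% of all genes tested. No marker of either list passed the test or was at 0 over all libraries, and their part in the ligand levels was not tested.

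Nrg2 (ENSMUSG00000060275), another neuregulin that binds ErbB3 and ErbB4, was at 2.41, 1.49, 0.878 and 1.80 CPM in KO replicates 1 to 4 and at 1.12, 1.67, 1.38 and 3.25 CPM in NLC replicates 1 to 4. It varied most among the members, by 38.8% in KO and 51.4% in NLC, where counting alone would give 15.4% and 15.2%. The log2 fold change of -0.15 (SE 0.387, edgeR adjusted p = 0.882) turned to 0.15 without KO replicate 3 and to 0.28 without NLC replicate 4. The sign of Nrg2 thus rested on single libraries.

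Nrg4 (ENSMUSG00000032311, chr9:55220222-55326844), a neuregulin that binds ErbB4 and is known as a factor released by brown fat, was at 1.59, 2.28, 1.93 and 1.73 CPM in KO replicates 1 to 4. In NLC replicates 1 to 4 it was at 1.91, 2.16, 2.13 and 2.39 CPM. KO replicate 2 lay among the NLC libraries and the other KO libraries near or below their lower end. The log2 fold change stood at -0.19 (SE 0.182, edgeR adjusted p = 0.661), and it was negative in all 18 alternatives. Nrg4 shares exon positions with Fbxo22 on the opposite strand, a gene at 34.8 ± 1.04 CPM in KO and 35.3 ± 0.967 CPM in NLC. Adipocyte markers (6 genes, none at 0 over all libraries) summed to 1.62 to 12.9 CPM in KO and 1.38 to 35.2 CPM in NLC, and their part in the Nrg4 level was not tested.

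Hbegf (ENSMUSG00000024486) encodes heparin-binding EGF, a membrane-bound ligand of EGFR and ErbB4 that is freed by metalloproteases. It was at 18.7, 15.9, 17.1 and 15.1 CPM in KO replicates 1 to 4 and at 15.4, 15.6, 17.1 and 15.7 CPM in NLC replicates 1 to 4. The groups overlapped and the highest value belonged to KO replicate 1, the most deeply sequenced library. The 95% interval of the fold change, 0.912 to 1.20, was among the narrowest of the members (log2 fold change 0.06, SE 0.0886, edgeR adjusted p = 0.771), and without KO replicate 1 the log2 fold change was -0.01. Markers of macrophages, a known source of HB-EGF, summed to 205 to 320 CPM in KO and 215 to 267 CPM in NLC over 8 genes with none at 0.

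Btc (ENSMUSG00000082361, chr5:91357261-91402994) encodes betacellulin, a ligand of EGFR and ErbB4. It was at 0.899, 0.692, 1.05 and 1.05 CPM in KO replicates 1 to 4 and at 1.31, 1.02, 0.641 and 1.25 CPM in NLC replicates 1 to 4, on 19 to 36 reads a library. The log2 fold change stood at -0.19 (SE 0.281, edgeR adjusted p = 0.784), and fold changes of 0.568 to 1.35 lie within its 95% interval. The KO libraries varied by 18.5%, close to the 19.3% that counting alone would give, so differences between them were not detectable at this depth.

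Levels of different genes were compared per kilobase of annotated exon, since a longer transcript yields more reads. Hbegf had the highest mean, at 3.45 ± 0.326 CPM per kb in KO and 3.31 ± 0.161 in NLC, followed by Erbb2 (3.08 ± 0.238 in KO and 2.89 ± 0.152 in NLC) and Erbb3 (2.77 ± 0.289 in KO and 2.89 ± 0.279 in NLC). Hbegf exceeded Erbb2 in 3 of 4 KO libraries, with overlapping ranges, and in 4 of 4 NLC libraries, with ranges apart. Erbb2 and Erbb3 did not differ beyond their spread: Erbb2 exceeded Erbb3 in 3 of 4 KO libraries and in 1 of 4 NLC libraries. These 3 genes lay near the middle of all genes tested, at the 52.9th, 49.8th and 48.5th percentiles.

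A wide gap separated them from the other 6. Nrg2, Erbb4 and Egfr came next, at 0.524 ± 0.203, 0.322 ± 0.102 and 0.393 ± 0.0440 CPM per kb in KO and 0.592 ± 0.304, 0.540 ± 0.167 and 0.420 ± 0.0559 CPM per kb in NLC, and their ranges overlapped. Erbb4 exceeded Egfr in 0 of 4 KO libraries and in 3 of 4 NLC libraries, so the order of these neighbours was not the same in the 2 groups. Nrg4 followed at 0.310 ± 0.0497 CPM per kb in KO and 0.353 ± 0.0320 in NLC, then Btc and, lowest in both groups, Nrg1 at 0.159 ± 0.0526 in KO and 0.131 ± 0.0426 in NLC. The exon length counts every annotated transcript, and a gene that uses a short one is placed too low by this measure.

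**Figure D4:**
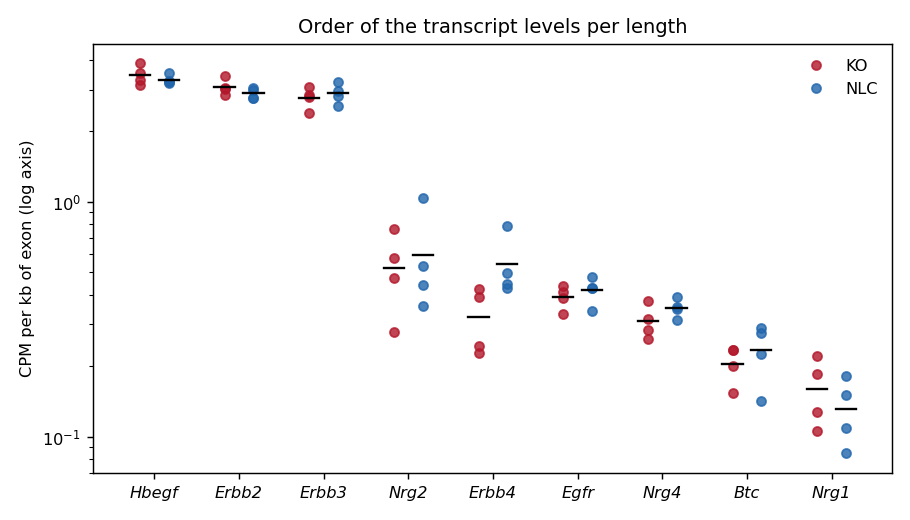
Level of each member per kilobase of annotated exon (y axis, CPM per kb, logarithmic) in KO and NLC libraries, with points for libraries and short lines for means. Hbegf, Erbb2 and Erbb3 form an upper group near 3 CPM per kb, and the other 6 genes lie at or below 1.04 CPM per kb.

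Erbb4 and Nrg1 are among the longest genes of those tested. Erbb4 (ENSMUSG00000062209) spans 1075.9 kb at chr1:68032186-69108059 and Nrg1 (ENSMUSG00000062991) 1069.5 kb at chr8:31814551-32884029 of GRCm38. Negative values prevailed among long genes: of the 31 tested genes that span 1000 kb or more, 26 had a negative log2 fold change, against 51.0% of all genes tested. Their median was -0.19, against -0.01 for all genes tested. Of these 31 genes 2 were called, both lower in KO, where 0.0544% of all genes were called lower. At an unadjusted p under 0.05, 11 were lower and 0 higher in KO, against 6.18% lower and 5.77% higher among all genes. Erbb4 was the fifth lowest of the 31, while Nrg1, of nearly the same span, had the highest value of all 31. Negative values also prevailed at shorter spans, with 70.8% of tested genes of 50 to 200 kb and 73.6% of those of 200 to 500 kb. Below 50 kb the share was 43.4%. The 7 other members span 10.9 to 179.7 kb, with Egfr, Nrg2 and Nrg4 in the class of 50 to 200 kb. The part of span in the difference of Erbb4 or of any other member was not tested.

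**Figure D5:**
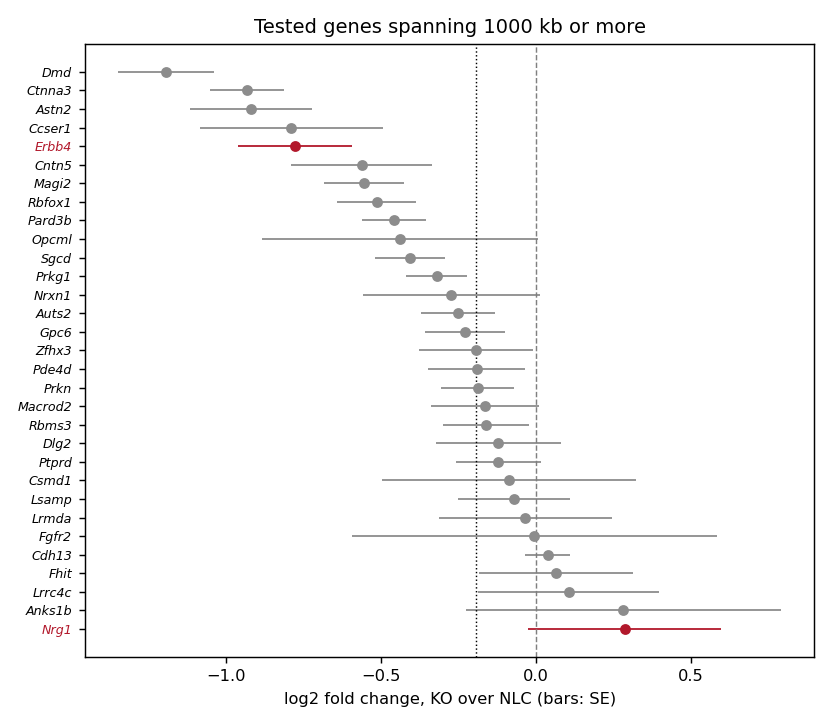
Log2 fold change of KO over NLC (x axis, bars for SE) of the 31 tested genes that span 1000 kb or more, in order, with Erbb4 and Nrg1 in red and the median of -0.19 as a dotted line. Erbb4, at -0.78, is the fifth lowest and Nrg1, at 0.29, the highest.

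The sexes were then compared, with 2 libraries per sex and group. Within males, edgeR called 0 of 9 members, against 0.0408% of all genes tested, and 1 had an unadjusted p under 0.05, against 17.5%. That member was Erbb4, at 2.80 and 3.01 CPM in male KO libraries and 5.32 and 6.16 CPM in male NLC libraries (log2 fold change -0.98, SE 0.263, edgeR adjusted p = 0.179). DESeq2 called it in males (adjusted p = 0.0445), as it did 2.7% of the 11561 genes to which it gave an adjusted p there. Limma voom called 0 members in males. In females Erbb4 was at 5.27 and 4.85 CPM in KO and 5.50 and 9.72 CPM in NLC (log2 fold change -0.59, SE 0.252, edgeR adjusted p = 0.969), and 0 members were called by edgeR, DESeq2 or limma voom. EdgeR called 0% of all genes tested in females. Erbb4 was the 1 member with an unadjusted p under 0.05 there, against 5.12% of all genes. In the sample numbers that the submitters' descriptions carry, both male KO samples precede both male NLC samples, so in males genotype and position in that order cannot be told apart.

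A direct test of whether the genotype difference depended on sex passed for no member. The edgeR interaction called 0 of 9 (0% of all genes tested), 0 had an unadjusted p under 0.05 (7.46% of all genes), and DESeq2 and limma voom also called 0. For Erbb4 the male log2 fold change minus the female one was -0.39 (SE 0.363, edgeR adjusted p = 0.770). Nrg2 had the largest such difference, 1.28 (SE 0.691, edgeR adjusted p = 0.663), with 0.49 in males and -0.79 in females.

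Between males and females of both genotypes, 0 of 9 members were called by edgeR, where 0.299% of all genes tested were, and 0 by DESeq2 or limma voom. At an unadjusted p under 0.05 there was 1 member, Erbb4 (0.00886), against 12.8% of all genes. Its log2 difference, males over females, was -0.59 (SE 0.184, edgeR adjusted p = 0.245). This sex difference passed without NLC replicate 3, at -0.78 (edgeR adjusted p = 0.0226), and with no low count filter, at -0.60 (edgeR adjusted p = 0.00763). How many of all genes differed by sex in those settings is not given here. Erbb3 was at -0.18 (SE 0.0861, edgeR adjusted p = 0.405), and the other 7 members at -0.09 to 0.12.

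The rest of the pathway was followed through 103 genes in 6 lists, of which 97 passed the low count filter. By edgeR 0 of the 97 were called, and 18 had an unadjusted p under 0.05, which is 18.6% of them against 11.9% of all genes tested. Of these 18, 15 were lower and 3 higher in KO, where 6.18% of all genes were lower and 5.77% higher. Among the 3231 tested genes that span 50 to 200 kb, 398 were lower and 67 higher at that threshold. The median log2 fold change of the 97 was -0.05, against -0.01 for all genes. Negative values were found for 63 of the 97, against 51.0% of all genes and 70.8% of genes that span 50 to 200 kb. The part of span in these lists was not tested. DESeq2 called 3, namely Ier3, Map2k2 and Adam10, beside its 1.01% of all genes, and limma voom called 0.

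Of the other 6 EGF-family ligands, Areg, Ereg, Epgn and Nrg3 did not pass the filter, with 7, 21, 36 and 1 reads over all 8 libraries. Egf, the founding ligand of EGFR, was at 8.82 ± 3.68 CPM in KO and 6.93 ± 1.66 CPM in NLC (log2 fold change 0.33, SE 0.166, edgeR adjusted p = 0.445). Tgfa was at 1.02 ± 0.215 CPM in KO and 1.16 ± 0.433 CPM in NLC. Neither was separated from the spread between libraries.

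Among 17 genes of shedding and ligand processing, 8 had a positive and 9 a negative log2 fold change. Adam10, a metalloprotease that frees EGF-family ligands from the membrane, was at 30.8 ± 2.83 CPM in KO and 39.7 ± 3.97 CPM in NLC, and the groups did not overlap (log2 fold change -0.37, SE 0.0895, edgeR adjusted p = 0.212). Groups were apart for 6.25% of all genes tested, with KO lower for 3.03%. Spred1, Spred2 and Map2k2, given below, did not overlap either. Adam9 was at -0.14 and Rhbdf2, a partner of the protease ADAM17, at 0.25 on the log2 fold change scale.

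Of 20 inhibitors and turnover factors, 15 had a negative log2 fold change. Among all genes tested 51.0% did, and among those that span 50 to 200 kb 70.8% did. The Ras-ERK inhibitor gene Spred1 was at 15.5 ± 0.253 CPM in KO and 20.8 ± 3.72 CPM in NLC (log2 fold change -0.42, SE 0.119, edgeR adjusted p = 0.266). Its relative Spred2 stood at -0.25, and Socs5, which is known to promote EGFR breakdown, at -0.21. Of 10 chaperones and receptor partners 7 were negative. Erbin, a scaffold that binds ErbB2, had a log2 fold change of -0.27 (SE 0.104), the chaperone Hsp90aa1, on which ErbB2 depends, -0.24 (SE 0.0984), and the co-chaperone Cdc37 0.14 (SE 0.0763).

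Of 38 tested adaptors and downstream kinases, 26 had a negative and 12 a positive log2 fold change. Negative values made up 51.0% of all genes tested and 70.8% of those that span 50 to 200 kb. Map2k2, the ERK kinase MEK2, was at 132 ± 17.1 CPM in KO and 106 ± 4.12 CPM in NLC (log2 fold change 0.31, SE 0.0710, edgeR adjusted p = 0.196). The adaptor gene Crkl was at 26.0 to 28.5 CPM in KO and 28.2 to 32.6 CPM in NLC (log2 fold change -0.19, SE 0.0706, edgeR adjusted p = 0.350). Of 10 tested genes that ERK signalling induces, 5 had each sign. Ier3 was at 36.8 ± 4.66 CPM in KO and 27.1 ± 6.57 CPM in NLC (log2 fold change 0.46, SE 0.103, edgeR adjusted p = 0.185), Myc had a log2 fold change of 0.52 (SE 0.188), and Dusp6, a phosphatase that switches ERK off, -0.26 (SE 0.112). Without NLC replicate 3, Ier3 passed (edgeR adjusted p = 0.0342), in a setting that called 50 genes where the main fit called 15.

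The genes whose level followed each receptor most closely over the 8 libraries were found by Pearson's r of log2 CPM among 12058 named genes with a mean of at least 1 CPM. All libraries enter both sides of each r, which is given as a description. With 8 libraries some genes can pass an r of 0.9 by noise alone, and how many was not examined. For Erbb4 these were Sik2 (0.991), Smim15 (0.990) and Dennd4c (0.980), and 158 genes had an r over 0.9. For Erbb3 they were Zkscan8 (0.976), Wdr44 (0.968) and Smc1a (0.967), with 43 genes over 0.9. For Erbb2 they were Camsap3 (0.965), Clcf1 (0.947) and Cep164 (0.946), and for Egfr Pla2g4e (0.955), Smim3 (0.941) and Tceanc (0.934), with 9 and 16 genes over 0.9. Nrg1 was followed by Rab3a (0.933), Wnk2 (0.922) and Cdh13 (0.919), and 6 genes had an r over 0.9.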

How the data were processed

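Counts of reads per Ensembl gene were deposited, 1 file per library. Tools named in the submitters' processing notes are STAR, HTSeq and DESeq2, and the build is GRCm38. No tool version, gene annotation or strand setting is stated there. Per the labels' protocols, the kit was a stranded mRNA kit. The files' 5 summary entries name no gene and were left out. Multiply mapped reads, 16.8% to 20.3% of those tallied, are not in the gene counts.

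Symbols, spans and coding sequences came from GENCODE M21, in which 55227 identifiers matched. The listed gene Nrdc was matched by its older symbol. The main tests used edgeR 4.0.16 under R 4.3.3 (filterByExpr, TMM factors, glmQLFit and glmQLFTest, sex as an additive term), and p-values were adjusted by Benjamini-Hochberg over all 14695 genes tested. Contrasts by sex came from a design with a mean for each sex and genotype. CPM use TMM-scaled library sizes, and the log2 CPM of list scores, correlations and permutation tests have a prior count of 2. The SE is the log2 fold change divided by the root of the F statistic. Of each pathway list the 3 genes with the smallest p were named (1 gene of these is not reported here), and for 5 members the 3 genes of most alike pattern. Alternatives used DESeq2 1.42.0, limma 3.58.1 (voom), other scalings and filters, other designs, and each library left out in turn.

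On simulated KO against NLC counts of 14695 genes, in which 200 genes at 1 CPM or more were changed, 64.2% of 1.5-fold, 89.2% of 2-fold and 99.5% of 3-fold changes were recovered. The simulated libraries varied independently, with no sex difference and no uneven atrial transcript. The rates pool genes of all levels from 1 CPM up, so they do not give the power for members on few reads. Nothing in the labels beyond replicate numbers says how animals were paired or pooled. Members and lists were chosen with earlier results of these data known.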

Additional observations from a re-analysis of the deposited data

How the results depend on the processing

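The count of called members, 0 by edgeR, was 1 (Erbb4) with DESeq2 and 1 with no low count filter, and 0 to 1 when a library was left out, the 1 without NLC replicate 3. It was 0 in each other setting. Over all genes the count was 15, with 148 by DESeq2, 621 with no low count filter, 29 with the atrial score as a covariate, 6 with no sex term, and 0 to 50 when a library was left out: 0 without KO replicate 2, KO replicate 3, NLC replicate 1 or NLC replicate 2, 4 without KO replicate 1 or KO replicate 4, and 50 without NLC replicate 3. Called pathway genes, 0, were 3 with DESeq2, 4 with no filter and 0 to 1 when a library was left out (Ier3 without NLC replicate 3). Within males the member count of 0 was 1 with DESeq2 and 1 with no filter, and between males and females it was 1 with no filter and 0 to 1 when a library was left out (1 without NLC replicate 3). The causes were not tested. Member directions held in all 18 alternatives for 7 of 9 genes. The log2 fold change of Nrg2 ranged from -0.44 to 0.28 and Hbegf from -0.01 to 0.12 when a library was left out.

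With a replicate block, 0 genes were called, and Erbb4 was at -0.75 (adjusted p = 0.301). Same-numbered libraries share a sex and a number, and nothing in the labels says that they were paired. Deviations from the group means, with sex not taken out, correlated at 0.246, 0.0937, -0.208 and 0.0873 for numbers 1 to 4. Of the KO libraries only replicate 1 correlated best with its own number, and KO replicate 3 correlated most with NLC replicate 4 (0.497). The depth limits Btc, Nrg1, Nrg2 and Nrg4 most, with 19 to 94 reads a library.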
